A study of Homo sapiens with 8 samples.

Results

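HCT116 and HT29, 2 established lines of human colorectal cancer cells, were compared 48 h after transfection of 15 nM siRNA against RPL17 or of the same dose of a negative control siRNA (NC). The comparison holds 4 of the 8 libraries of the series, chosen by their sample labels: NC and RPL17 siRNA in HCT116, and NC and RPL17 siRNA in HT29. The other 4 are RPL9 and RPL27 siRNA libraries of the same lines, used here only where a spread or a second comparison needed them. All cells were grown in RPMI medium and transfected with a cationic lipid, and libraries were made from total RNA with a TruSeq kit. The labels name no genotype other than the lines. As background, HCT116 has wild-type p53 and HT29 a mutated one.

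RPL17 (uL22) is a protein of the large ribosomal subunit that lines the tunnel through which the new peptide leaves the ribosome. When a large subunit protein runs short, unfinished subunits are degraded and the RPL5, RPL11 and 5S rRNA particle can bind MDM2, the ubiquitin ligase that holds p53 down. A second programme known from cells under translational stress is the amino acid response, in which the transcription factor ATF4 switches on genes of serine and asparagine synthesis and of amino acid transport.

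Each line was given each siRNA once, so no value within a line has a replicate error, and the 2 lines served as the replicates of the siRNA. The p values therefore set a mean difference against the scatter between the lines over all libraries in the fit. Against NC that scatter takes in the RPL9 and RPL27 siRNA libraries as well. The labels do not say whether libraries came from separate experiments. Levels are deposited as RPKM (reads scaled to transcript length and to library depth) for 19124 genes. The libraries held roughly 20.7 to 26.5 M reads by the value of 1 read in 1186 single-exon genes, and 13.1% to 15.7% of the genes were listed at 0. The HT29 NC library stood apart. Set against the median library, its values in 11006 genes ran with transcript length at a Spearman rho of -0.602, where the rest had -0.00185 to 0.174. Short transcripts therefore read high, and long ones low, in HT29 NC. Each result is given for HCT116, which does not use that library, for HT29, and where it matters for HT29 with the trend of every library with length removed. Differences are RPL17 siRNA minus NC on the log2(RPKM + 1) scale, which understates differences of low genes, and 14239 genes with a mean of 1 RPKM or more over the 4 libraries were tested. The median difference over these genes was -0.0065 in HCT116 and 0.20 in HT29.

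The level of RPL17 itself was read first. RPL17 stood at 25956 RPKM in NC and 10004.5 RPKM under RPL17 siRNA in HCT116, and at 43950 and 8240 RPKM in HT29, which is 38.5% and 18.7% of NC. Under the other siRNAs it stood at 27302 (RPL9) and 31299 RPKM (RPL27) in HCT116, and at 27912 and 28748 RPKM in HT29. RPL17 siRNA libraries were thus the lowest of the 4 in each line, and the level in HT29 NC was the highest of the 8. In limma the difference from NC was -1.90 (SE 0.26; adjusted p = 0.18), and with the length trend removed it was -1.51 (SE 0.089; adjusted p = 0.0078). RPL17-C18orf32, a read-through gene that shares the RPL17 exons, went from 19741 to 7658 RPKM in HCT116 and from 33060 to 6338 RPKM in HT29. Reads of these genes cannot be told apart here, and processed pseudogenes may share reads with ribosomal protein genes.

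A second large subunit protein was low in the same libraries. RPL27, another protein of that subunit, went from 7649 to 4723 RPKM in HCT116 and from 16205 to 4754 RPKM in HT29. Under RPL9 siRNA it stood at 9280 and 10530 RPKM, so in both lines RPL27 was lower under RPL17 siRNA than under NC or RPL9 siRNA, at 50.9% and 45.1% of the RPL9 siRNA level. Its difference from NC was -1.23 (SE 0.28; limma adjusted p = 0.22), and -0.88 (SE 0.098; adjusted p = 0.040) with the length trend removed. RPL9, also of the large subunit, stood at 17432 in NC and 18619 RPKM under RPL17 siRNA in HCT116, and at 35729 and 17619 RPKM in HT29. RPL9 was therefore near its NC level in HCT116, while the HT29 value rests on the HT29 NC library: it was 17546 RPKM under RPL27 siRNA in that line.

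**Figure D1:**
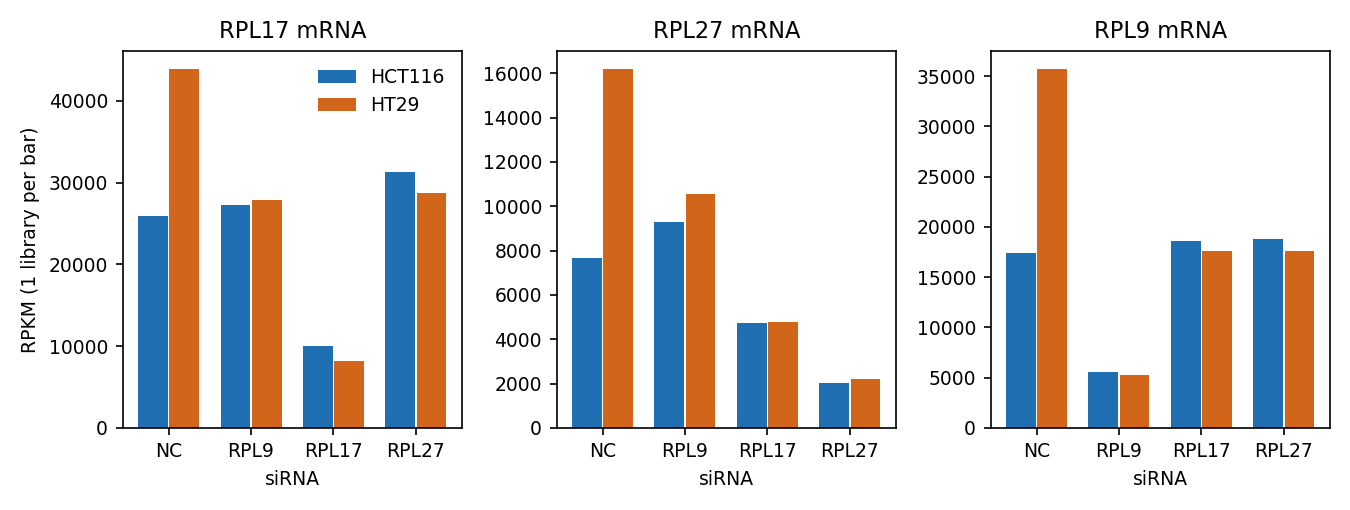
RPKM of RPL17, RPL27 and RPL9 mRNA (vertical axes, each from 0) under each of the 4 siRNAs (horizontal axes), 1 bar per library, HCT116 in blue and HT29 in orange. RPL17 is lowest under RPL17 siRNA in both lines (10004.5 and 8240 RPKM), RPL27 under RPL17 siRNA stands at 4723 and 4754 RPKM, and HT29 NC has the highest bar in every panel.

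Against NC, limma called 2 genes higher (0.014% of those tested) and 0 lower (0.0%) at an adjusted p under 0.05, and 2264 genes had an unadjusted p under 0.05. One of them was CPA4, a secreted carboxypeptidase that trims peptides. CPA4 stood at 258 RPKM in NC and 1828 RPKM under RPL17 siRNA in HCT116, and at 187 and 1218 RPKM in HT29. It rose by 2.76 (SE 0.17; adjusted p = 0.026), which is 7.08-fold in HCT116 and 6.5-fold in HT29. The call was lost when any 1 of the 6 RPL siRNA libraries was left out (adjusted p = 0.22 or more), without the cell line as a block (0.14), without a filter on low values (0.058), under median-centring (0.080) and with no variance trend (0.12). It was 0.0068 with the length trend removed. Over 19 alternatives the adjusted p of CPA4 ran from 6.6e-05 to 0.94, while the difference stayed between 2.56 and 2.82.

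Since that test has 3 residual degrees of freedom, genes were also counted by size, with no test: a difference of 1 or more in the same direction in both lines. By this rule 263 genes were higher (1.85%) and 232 were lower (1.63%), and the members of each gene list below are read against those shares. Of the 14239 tested genes, 689 were at least 1 higher and 960 lower in HCT116 alone, and 3292 and 1404 in HT29 alone. The genes higher in both lines made 38.2% of those higher in HCT116 and 7.99% of those higher in HT29, and the genes lower in both made 24.2% and 16.5%. Opposite directions of that size were found for 65 genes higher in HCT116 and lower in HT29, and for 165 the other way. How many genes would be shared or opposite in unrelated lines was not worked out. Under quantile normalization the split was 226 higher and 304 lower, and under median-centring 198 and 341. The shared higher genes had a median transcript length of 3364 bases and the shared lower genes 1879, against 2722 over all tested genes, and with the length trend removed 221 and 166 of them were still past the rule. Across genes the differences of the 2 lines had a Spearman rho of 0.18, or 0.25 with the length trend removed, a description over genes that share 4 libraries.

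The rule's edge passes through low or moderate differences: the members closest inside it were NNAT (1.0011), IGFLR1 (-1.0011) and MYO1H (1.0017) and those closest outside AKAP3 (-0.9985), APBB1 (-0.9975) and VIM (-0.9974), each given as the smaller of the 2 lines' differences. With the length trend removed, limma called 36 genes higher (0.255% of 14139) and 14 lower (0.099%), of which 36 of 50 were past the size rule as well. That setting is an alternative, and its adjusted p is printed below beside many of the named genes. Where only that value is printed, the main fit against NC did not call the gene.

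**Figure D2:**
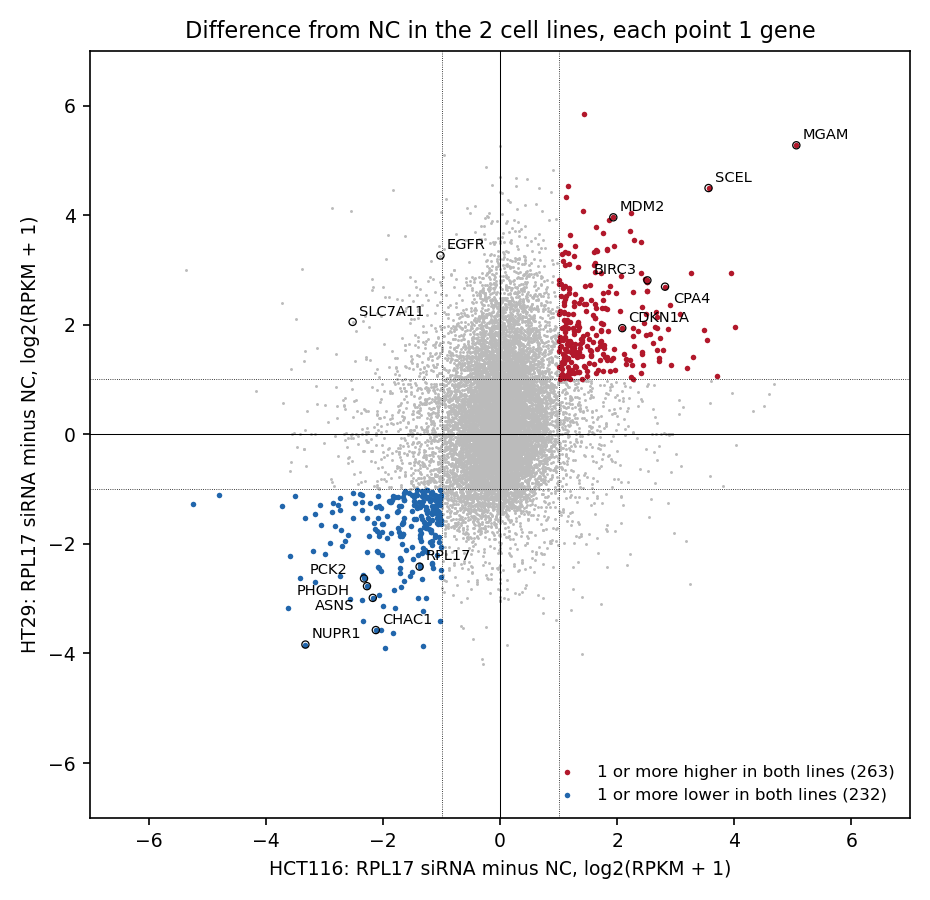
Difference from NC in HCT116 (horizontal) and HT29 (vertical) on the log2(RPKM + 1) scale, 1 point per tested gene, with dotted lines at a difference of 1 each way. Red marks the 263 genes at least 1 higher in both lines and blue the 232 at least 1 lower; the cloud is wider in HT29, EGFR and SLC7A11 lie in the upper left corner, and labelled genes are described in the text.

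Many genes that p53 switches on were higher in both lines. Of 18 tested targets that stop the cell cycle or feed back on p53, 7 were past the rule higher (38.9%, against 1.85% of all genes) and 0 lower, and 14 were higher and 0 lower in both lines, where 31.2% and 23.9% of all tested genes had those signs. The median difference was 0.98 in HCT116 and 0.73 in HT29 (1.14 with the length trend removed). These lists were written with earlier results of these data known, so the counts describe them and are no independent evidence of a direction.

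CDKN1A encodes p21, the inhibitor of cyclin-dependent kinases that stops cells in G1. It went from 225 to 958 RPKM in HCT116 and from 198 to 761 RPKM in HT29, both RPL17 siRNA libraries standing far above both NC libraries. The difference was 2.01 (SE 0.18; limma adjusted p = 0.066), and 2.13 (SE 0.13; adjusted p = 0.0078) with the length trend removed. MDM2 went from 986 to 3774 RPKM in HCT116 and from 168 to 2622 RPKM in HT29. Its HT29 difference of 3.96 came to 2.70 with the length trend removed, against 1.93 in HCT116, with an adjusted p of 0.19 before and 0.036 after removal. BTG2, which slows cell cycle entry and promotes removal of mRNA tails, went from 19.7 to 129.9 RPKM in HCT116 and from 28.1 to 135 RPKM in HT29, an almost equal level in the lines. PLK2, a kinase of centriole duplication that p53 induces, went from 601 to 2051 RPKM and from 935 to 2786 RPKM. For both genes, as for CDKN1A, the groups did not overlap. With 2 libraries on each side many genes can separate so, and their share over all genes was not counted. The limma adjusted p was 0.10 for BTG2 and 0.067 for PLK2, and 0.033 and 0.00999 with the length trend removed.

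ZMAT3, an RNA-binding regulator of splicing, stood at 66.7 and 147 RPKM in HCT116 and at 4.24 and 105 RPKM in HT29. TP53INP1, which aids autophagy and p53 activity, stood at 54.0 and 122 RPKM and at 11.5 and 123 RPKM. In both genes the siRNA libraries of the lines lay closer together than their NC libraries, HT29 NC being the lowest of the 4. SUSD6, listed under its older symbol KIAA0247, encodes a membrane protein induced after DNA damage, and went from 7.81 to 46.6 RPKM in HCT116 and from 6.95 to 38.8 RPKM in HT29. SESN1, a sestrin that restrains mTORC1 and a common p53 target, did not share in this: it stood at 123 and 113 RPKM in HCT116 and at 105 and 124 RPKM in HT29. GDF15, a stress cytokine, was moderately higher, at 170 and 258 RPKM in HCT116 and at 201 and 334 RPKM in HT29, where its difference of 0.73 was 1.44 with the length trend removed.

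Among 15 tested p53 targets of cell death 6 were past the rule higher (40.0%) and 0 lower, with medians of 1.15 and 0.98. Those 6 were mainly receptors at the cell surface. FAS, the receptor of the Fas ligand, went from 118 to 465 RPKM in HCT116 and from 56.6 to 344 RPKM in HT29. TNFRSF10B (DR5), a death receptor for TRAIL, went from 777 to 1722 RPKM and from 317 to 1349 RPKM. The decoy receptors of TRAIL, which lack a working death domain, were higher as well: TNFRSF10C went from 21.4 to 60.7 and from 15.3 to 76.6 RPKM, and TNFRSF10D from 378 to 809 and from 180 to 768 RPKM. So death-inducing and decoy receptors were both higher in both lines. The limma adjusted p was 0.13 for FAS and 0.19 for TNFRSF10B, and 0.040 and 0.061 with the length trend removed.

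Other members of the death list differed more between the lines as deposited. TP53I3, a quinone oxidoreductase, went from 34.2 to 231 RPKM in HCT116 and from 99.9 to 254 RPKM in HT29. Its limma adjusted p was 0.21, and 0.034 with the length trend removed. PMAIP1 (NOXA), a BH3-only protein that blocks MCL1, went from 81.7 to 229 RPKM and from 46.9 to 99.0 RPKM. BAX, which pierces the outer mitochondrial membrane, stood at 190.0 and 530 RPKM in HCT116 but at 569 and 484 RPKM in HT29, and BBC3 (PUMA) at 15.3 and 25.3 RPKM and at 24.8 and 25.96 RPKM. For BAX and BBC3 only the HCT116 pair differed by more than 0.6. The HT29 differences rest on the HT29 NC library: BAX turned from -0.23 to 0.40 with the length trend removed, BBC3 went from 0.06 to 0.46, and TP53I3 from 1.34 to 2.15. The difference between lines was not tested.

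Of 18 tested p53 targets of DNA repair and metabolism 2 were past the rule higher (11.1%) and 0 lower, with medians of 0.57 and 0.84. TIGAR, listed as C12orf5, lowers glycolysis by degrading fructose bisphosphate. It went from 147 to 429 RPKM in HCT116 and from 109 to 318 RPKM in HT29. The difference was 1.54 (SE 0.19; limma adjusted p = 0.15), and 1.58 (SE 0.16; adjusted p = 0.036) with the length trend removed. ASCC3, a helicase subunit that acts on alkylated DNA and stalled ribosomes, went from 462 to 1182 RPKM and from 194 to 1026 RPKM. For ASCC3 the limma adjusted p was 0.19, and 0.033 with the length trend removed. XPC, the damage sensor of nucleotide excision repair, was just short of the rule at 0.95 and 1.27. RRM2B, the p53-induced subunit of ribonucleotide reductase, stood at 412 and 492 RPKM in HCT116 and 88.3 and 444 RPKM in HT29, and DDB2 at 359 and 547 and at 563 and 483 RPKM. Both siRNA libraries lay close together for RRM2B, and HT29 NC was the lowest of the 4. The HT29 difference of DDB2 turned from -0.22 to 0.16 with the length trend removed.

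**Figure D3:**
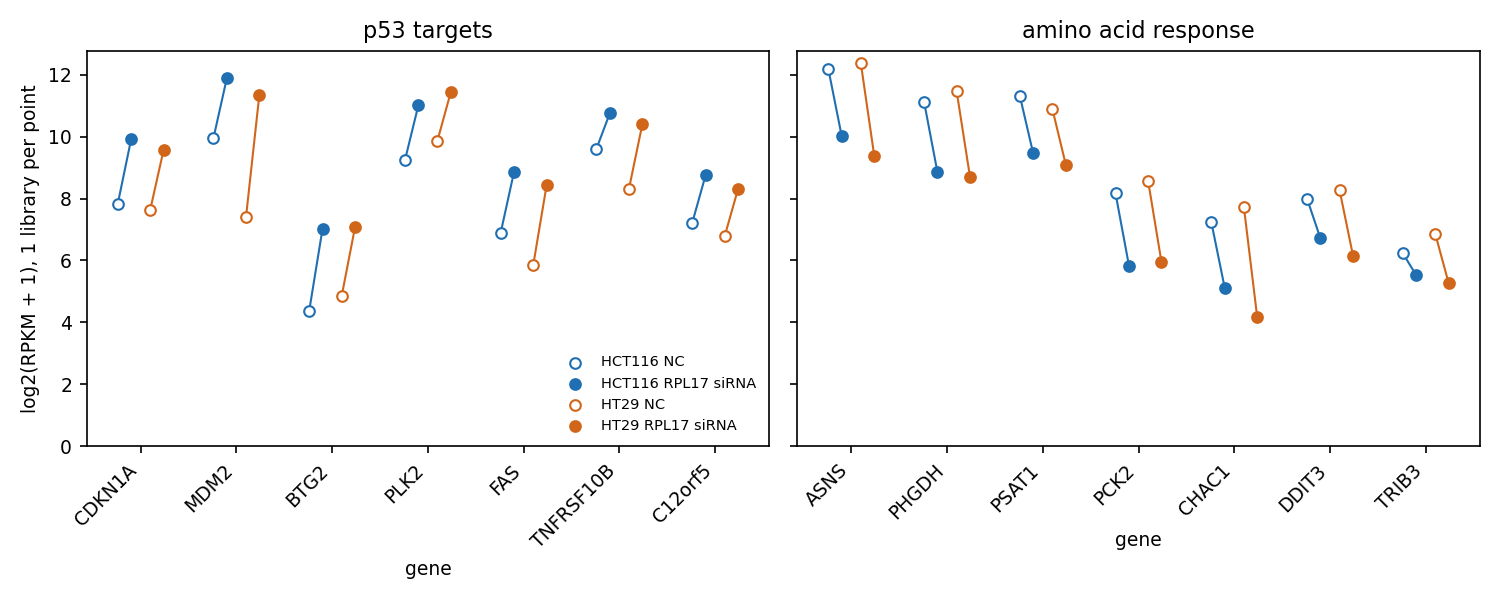
Levels as log2(RPKM + 1) (vertical axes) of 7 p53 targets (left) and 7 genes of the amino acid response (right), each joined from NC (open points) to RPL17 siRNA (filled points), 1 library per point, HCT116 in blue and HT29 in orange. All p53 targets shown are higher and all amino acid genes lower in both lines, as for CDKN1A (225 to 958 RPKM in HCT116) and ASNS (4661 to 1031 RPKM).

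Genes of amino acid synthesis were among the lowest of all. Of 15 tested genes of serine, glycine, asparagine and proline synthesis 6 were past the rule lower (40.0%, against 1.63% of all genes) and 0 higher, and 13 were lower in both lines. Medians were -1.07 in HCT116 and -0.91 in HT29, and -0.90 in HT29 with the length trend removed. Since ATF4 acts through a response element in its targets, the promoter stretches of 4 genes that were past the rule are shown around the match to TGATGNAA, searched on both strands of RefSeq windows (GRCh38.p14) from 250 bases before to 50 after each start. Capitals mark the match, and TTGCATCA is the same motif read on the other strand.
ASNS (chr7:97872455-97872490, minus strand): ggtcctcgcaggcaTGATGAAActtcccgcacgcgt
CHAC1 (chr15:40953248-40953283, plus strand): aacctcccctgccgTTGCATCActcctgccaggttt
GOT1 (chr10:99430801-99430836, minus strand): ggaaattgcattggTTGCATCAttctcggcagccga
HERPUD1 (chr16:56931952-56931987, plus strand): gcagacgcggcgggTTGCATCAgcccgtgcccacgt

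The matches began 68 bases (ASNS), 209 bases (CHAC1), 198 bases (GOT1) and 176 bases (HERPUD1) before the start. Over the lists of amino acid synthesis, transport, tRNA charging and stress response, 14 members were past the rule lower, and 5 of the 12 with a window held a match (ASNS, GOT1, SLC1A4, CHAC1 and CARS1), or 41.7%. Of 42 tested members that were not past it, 14 held one (33.3%), and of 27305 genes with a window 4.46% did. Among the members past the rule and those not past it the shares thus differed by 1 gene in 12. A match describes the letters and is neither a site nor a cause.

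ASNS, which makes asparagine, went from 4661 to 1031 RPKM in HCT116 and from 5254 to 662 RPKM in HT29. That is 22.1% and 12.6% of NC, with a difference of -2.58 (SE 0.23; limma adjusted p = 0.066), or -2.38 (SE 0.15; adjusted p = 0.0078) with the length trend removed. PHGDH, the first enzyme of serine synthesis, went from 2231 to 460.3 RPKM and from 2834 to 414 RPKM (adjusted p = 0.067, and 0.011 with the trend removed). PSAT1, the next enzyme of that pathway, went from 2551 to 700.4 RPKM and from 1902 to 546 RPKM, 27.5% and 28.7% of NC (adjusted p = 0.066, and 0.071 with the trend removed). In each of these genes both siRNA libraries lay below both NC libraries, and the lines had like levels. The share of all genes that separate in this way was not counted.

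PCK2, the mitochondrial enzyme that makes phosphoenolpyruvate, went from 286 to 56.2 RPKM in HCT116 and from 380 to 60.5 RPKM in HT29 (adjusted p = 0.066, and 0.033 with the trend removed). GPT2 and GOT1 are aminotransferases that make alanine and aspartate. GPT2 went from 341 to 151 RPKM and from 471 to 222 RPKM, and GOT1 from 1099 to 521 RPKM and from 1194 to 433 RPKM. MTHFD2, of the mitochondrial folate cycle, went from 3951 to 1861 RPKM and from 2517 to 1497 RPKM, past a difference of 1 in HCT116 only (-1.09 and -0.75). It was past 1 in both lines with the length trend removed, at -1.06 and -1.16 (limma adjusted p = 0.036). ALDH18A1, the entry enzyme of proline synthesis, had the opposite sign in both lines, at 843 and 1047 RPKM in HCT116 and at 867 and 1177 RPKM in HT29.

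Amino acid transporters split. Of 13 tested members 2 were past the rule lower (15.4%) and 0 higher, with a median of -0.57 in HCT116 and 0.12 in HT29 (-0.16 with the length trend removed). SLC43A1, which carries large neutral amino acids, went from 123 to 31.6 RPKM in HCT116 and from 263 to 93.4 RPKM in HT29, and SLC1A4, which exchanges serine and alanine, from 70.4 to 24.9 and from 48.4 to 19.3 RPKM. SLC7A11, the cystine carrier, went from 598 to 103 RPKM in HCT116 but from 52.6 to 221 RPKM in HT29. SLC7A5, the carrier of leucine, stood at 4036 and 2187 RPKM in HCT116 and at 1365 and 1479 RPKM in HT29. For both, HT29 NC was the lowest of the 4 libraries, and the HT29 difference of SLC7A5 turned from 0.12 to -0.32 with the length trend removed.

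The regulators of the integrated stress response had 5 of 20 tested members past the rule lower (25.0%) and 0 higher. They were DDIT3, CHAC1, CEBPB, NUPR1 and DDIT4. CHAC1, which degrades glutathione, went from 151 to 33.8 RPKM in HCT116 and from 212 to 16.9 RPKM in HT29. DDIT3 (CHOP), the transcription factor of prolonged stress, went from 255 to 104 RPKM and from 308 to 70.5 RPKM. NUPR1, a small stress-induced chromatin protein, went from 9.03 RPKM to a listed 0 in HCT116 and from 16.9 to 0.252 RPKM in HT29. ATF4 itself, which is mainly set at the level of translation, stood at 756 and 624 RPKM in HCT116 and at 1060.4 and 555 RPKM in HT29, a difference of -0.28 and -0.93. TRIB3, a pseudokinase that restrains ATF4, was at 74.4 and 45.04 RPKM and at 115 and 37.3 RPKM. ATF3, another stress factor of the list, had the other sign, with 67.9 and 109 RPKM in HCT116 and 51.5 and 110 RPKM in HT29. The list median was -0.25 in HCT116 and -0.080 in HT29, the latter -0.27 with the length trend removed.

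Cytosolic aminoacyl-tRNA synthetases, which charge tRNAs, had 1 of 19 tested members past the rule (CARS, lower) and medians of -0.34 and -0.29, with 10 lower and 5 higher in both lines. CARS, for cysteine, went from 2760 to 1267 RPKM in HCT116 and from 3384 to 1269 RPKM in HT29. GARS, for glycine, went from 5616 to 3035 RPKM and from 6290 to 2736 RPKM, and YARS, for tyrosine, from 3242 to 1716 and from 2913 to 1517 RPKM. With the length trend removed limma called these 3 lower, with adjusted p values of 0.040 (CARS), 0.039 (GARS) and 0.040 (YARS). WARS, for tryptophan, showed a smaller difference of -0.69 and -0.47.

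The unfolded protein response list had 1 of 19 members past the rule, HERPUD1, an adaptor of protein disposal from the endoplasmic reticulum, which went from 555 to 234 RPKM and from 503 to 193 RPKM. HSPA5 (BiP), the main chaperone there, stood at 4009 and 2872 RPKM in HCT116 and at 3691 and 2399.7 RPKM in HT29, and XBP1 at 244 and 151 and at 426 and 235 RPKM. Those were lower in both lines but by less than 1. None of 16 heat shock chaperones was past the rule, and their medians were 0.18 and 0.026.

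Mitotic genes were lower in both lines by a moderate amount. Of 36 tested genes of G2/M and mitosis 3 were past the rule lower (8.33%) and 0 higher, while 30 were lower in both lines and 0 were higher in both, with medians of -0.76 and -0.71 (-0.45 in HT29 with the length trend removed). In bulk RNA, fewer cells in G2 or mitosis and less RNA per cell cannot be told apart. PBK, a mitotic kinase, went from 1317 to 580.1 RPKM in HCT116 and from 1007 to 298 RPKM in HT29 (adjusted p = 0.18, and 0.043 with the length trend removed). NUF2, of the kinetochore, went from 895 to 372 RPKM and from 788 to 314 RPKM. CDC25C, the phosphatase that starts mitosis, went from 355 to 148 RPKM and from 315 to 154 RPKM. CCNB1, cyclin B1, went from 1709.8 to 984 RPKM and from 2012 to 868 RPKM, just under the rule in HCT116.

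Promoters of such genes commonly carry CCAAT boxes bound by NF-Y. Another common element is a cell cycle homology region, TTTGAA or TTCGAA, bound by MuvB complexes, among them the repressor DREAM. The stretches of 2 list members are shown with both motifs in capitals, on either strand (CCAAT read on the other strand is ATTGG).
PLK1 (chr16:23678802-23678879, plus strand): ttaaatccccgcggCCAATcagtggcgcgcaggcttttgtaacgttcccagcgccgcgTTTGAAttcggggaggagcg
CDK1 (chr10:60778386-60778477, plus strand): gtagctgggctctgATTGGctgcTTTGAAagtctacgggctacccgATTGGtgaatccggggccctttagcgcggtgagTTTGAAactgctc

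CCAAT was found in the windows of 24 of 29 list members (82.8%), against 39.7% of all genes with a window, and TTTGAA or TTCGAA in 21 of 29 (72.4%), against 19.5%. Matches were counted separately for each motif, overlapping or not, and 7 tested members had no window. Members were counted whatever their difference from NC, so these shares describe the list and not the response to the siRNA. Here too a match is neither a site nor a cause. PLK1, the kinase of mitotic entry, went from 930 to 637 RPKM in HCT116 and from 916 to 537 RPKM in HT29. CDK1, the kinase that drives mitosis, went from 1051 to 709.5 RPKM and from 645 to 498 RPKM, and its HT29 difference of -0.37 was 0.04 with the length trend removed. TOP2A, the topoisomerase of chromosome condensation, stood at 3454 and 2349.8 RPKM in HCT116 and at 1845 and 3207 RPKM in HT29, where its difference of 0.80 was 0.082 with the length trend removed. The mitotic genes were thus lower in HCT116 without exception (from -1.27 to -0.21), and in HT29 between -1.76 and the 0.80 of TOP2A.

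DNA replication and nucleotide synthesis showed the same signs at smaller size. None of 38 tested members was past the rule, 28 were lower and 0 higher in both lines, and the medians were -0.45 and -0.34 (-0.22 in HT29 with the length trend removed). MCM2, of the replicative helicase, stood at 1194 and 837 RPKM in HCT116 and at 950 and 833 RPKM in HT29. TYMS, which makes thymidylate, stood at 2073 and 1574 RPKM and at 1862 and 1100 RPKM, and RRM2, of ribonucleotide reductase, at 2355 and 1950 RPKM and at 1510 and 1381 RPKM. These differences from NC were between -0.13 and -0.76.

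Genes of the ribosome differed between the lines in sign. Of 47 tested large subunit proteins 1 was past the rule, RPL17 itself, and of 32 small subunit proteins 0 were. Large subunit genes had a median of 0.20 in HCT116 and -1.02 in HT29, and small subunit genes 0.19 and -1.09. The HT29 medians were -0.29 and -0.32 with the length trend removed. These mRNAs are short, with median lengths of 894 and 736 bases, at the end where HT29 NC read high. RPL5 and RPL11 are the proteins that bind MDM2 together with 5S rRNA. RPL5 went from 12853 to 10978 RPKM in HCT116 and from 22118 to 10427 RPKM in HT29, and RPL11 from 9679 to 13121 RPKM and from 21056 to 13518 RPKM. RPS6, of the small subunit, stood at 14179 and 15328 RPKM in HCT116 and at 23479 and 16482 RPKM in HT29.

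Paralogs of ribosomal proteins were uneven. RPL22L1 went from 2094 to 1340.2 RPKM in HCT116 and from 3593 to 665 RPKM in HT29. RPS27L, a p53-induced paralog, stood at 697 and 1738 RPKM in HCT116 and at 1368 and 1241 RPKM in HT29. Its HT29 difference of -0.14 was -0.97 with the length trend removed. The latter value depends on an assigned transcript length of 6434 bases, which was not checked. Of 35 mitochondrial ribosomal proteins 0 were past the rule, with medians of 0.17 and -0.63 (-0.03 with the length trend removed).

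Factors that build ribosomes were higher by small amounts in HCT116. None of 37 large subunit assembly factors and none of 42 members of the small subunit processome and RNA polymerase I was past the rule, but 19 and 24 were higher in both lines and 1 and 3 lower. Medians were 0.35 and 0.04 for the first and 0.46 and 0.29 for the second, where the HT29 median over all genes was 0.20. POLR1B, the second largest subunit of RNA polymerase I, stood at 438 and 632 RPKM in HCT116 and at 169 and 550 RPKM in HT29. PES1, of the PeBoW complex of large subunit assembly, stood at 1490 and 2101 RPKM and at 1670 and 1379 RPKM, and RRS1, which brings RPL5 and RPL11 into the subunit, at 22.2 and 41.5 RPKM and at 29.5 and 33.6 RPKM. Of 33 translation factors 1 was past the rule. EIF4EBP1, the brake on cap-dependent initiation, went from 294 to 139 RPKM in HCT116 and from 406 to 87.1 RPKM in HT29.

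**Figure D4:**
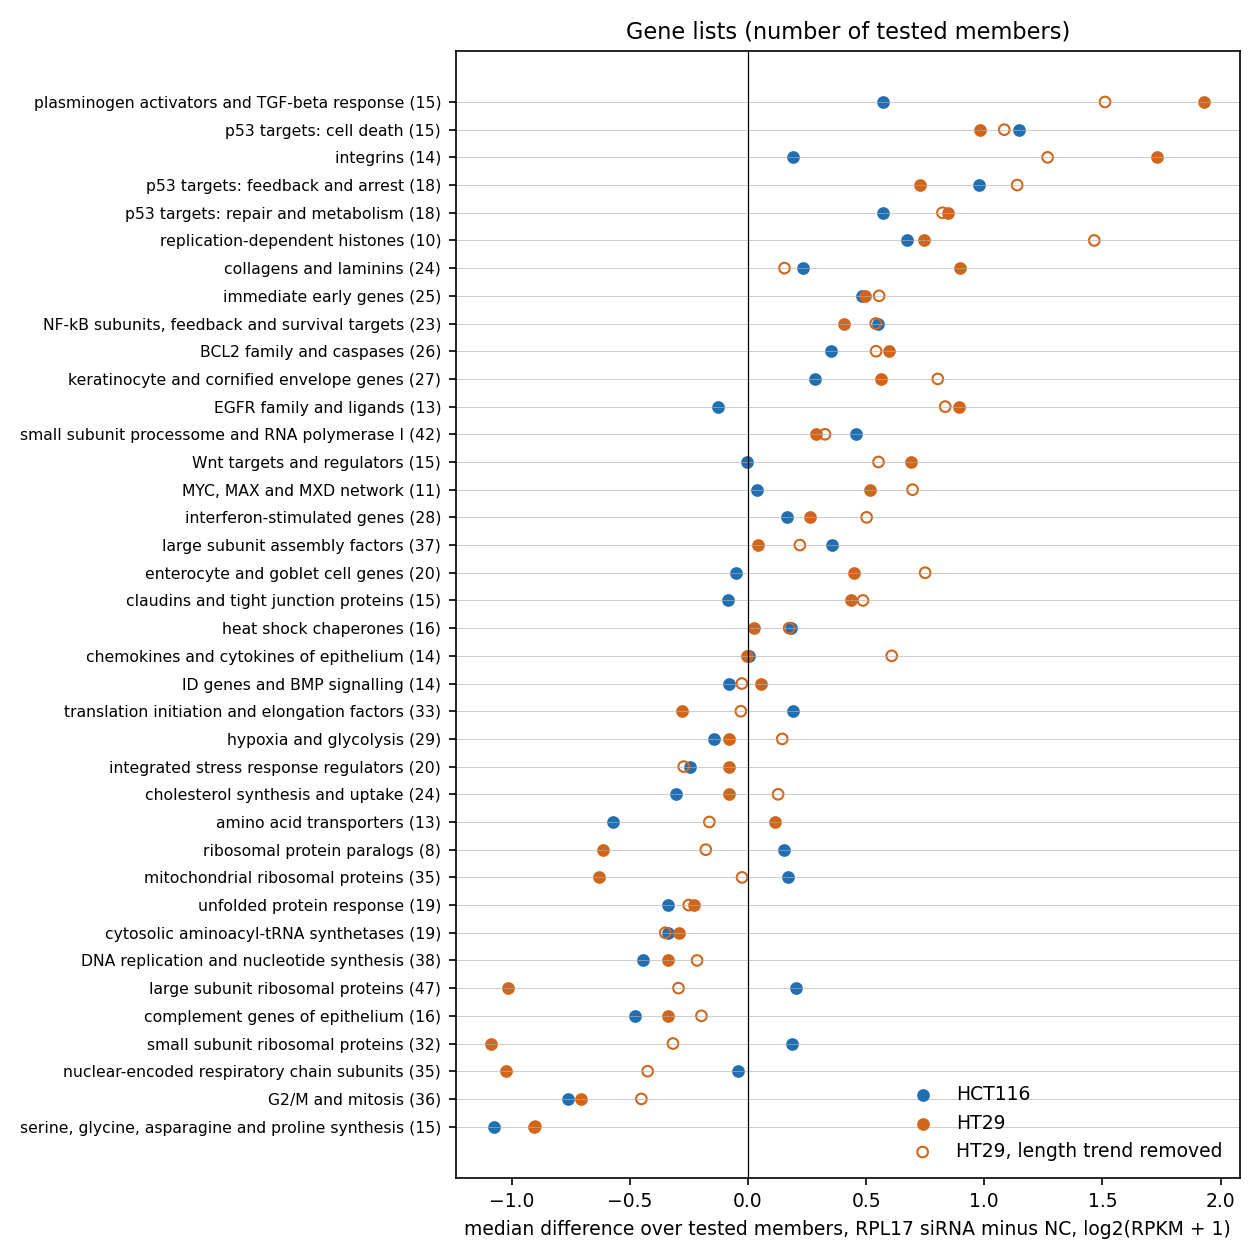
Median difference from NC (log2(RPKM + 1), horizontal) over the tested members of 38 gene lists, with the number of members in brackets, in HCT116 (blue), HT29 (orange) and HT29 with the length trend removed (open). The p53 target lists lie right of 0 in all 3 readings and the serine and G2/M lists left of 0, while ribosomal protein and respiratory chain lists lie far to the left only in HT29 as deposited (-1.02, -1.09 and -1.02).

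Among inhibitors of apoptosis and NF-kB genes BIRC3 stood out. BIRC3 (cIAP2), a ubiquitin ligase of TNF receptor signalling, went from 42.9 to 250.5 RPKM in HCT116 and from 32.1 to 231 RPKM in HT29, 5.84-fold and 7.198-fold (difference 2.66, SE 0.27; limma adjusted p = 0.078, and 0.033 with the length trend removed). It was the 1 of 23 tested NF-kB subunits, feedback genes and survival targets past the rule, though 16 were higher and 1 lower in both lines, with medians of 0.55 and 0.41. TNFAIP3 (A20), which shuts NF-kB signalling off, stood at 15.5 and 29.5 RPKM and at 5.11 and 14.3 RPKM. RELB, of the noncanonical pathway, stood at 28.96 and 97.5 RPKM in HCT116 and at 74.9 and 94.9 RPKM in HT29, and NFKBIA, the inhibitor that NF-kB itself induces, at 109 and 179 RPKM and at 205.2 and 205.4 RPKM. The HT29 difference of NFKBIA with the length trend removed was 0.54, against 0.70 in HCT116.

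Chemokine genes were not among the higher ones. Of 14 tested chemokine and cytokine genes 0 were past the rule higher and 1 was lower, CXCL2, listed at 3.19 and 0 RPKM in HCT116 and at 7.48 and 1.42 RPKM in HT29. CXCL8, listed as IL8, stood at 11.4 and 5.95 RPKM in HCT116 and at 6.68 and 20.1 RPKM in HT29. Interferon-stimulated genes had 1 of 28 past the rule each way. RIG-I, listed as DDX58, a sensor of viral RNA, went from 93.0 to 189 RPKM and from 69.4 to 164 RPKM, and IFI27 from 3.66 to 0.320 RPKM and from 35.1 to 4.03 RPKM. In the complement list C3 went from 18.5 to 3.77 RPKM in HCT116 and from 37.6 to 5.88 RPKM in HT29, and C2 from 16.7 to 2.48 and from 4.99 to 1.30 RPKM, the 2 of 16 members past the rule, both lower.

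Of 25 tested immediate early genes 5 were past the rule higher and 0 lower. JUN, of AP-1, went from 2.24 to 17.2 RPKM in HCT116 and from 4.25 to 17.5 RPKM in HT29. CCN1, listed as CYR61, a matrix protein that integrins bind, went from 25.5 to 174 RPKM and from 21.5 to 74.9 RPKM. ZFP36L1, which marks AU-rich mRNAs for decay, went from 80.0 to 212 RPKM and from 64.2 to 209 RPKM. Its limma adjusted p was 0.18, and 0.041 with the length trend removed. DUSP5, a phosphatase of ERK, went from 187 to 480 RPKM and from 131 to 290.1 RPKM. The fifth, FOSB, was low throughout, at 0.988 and 4.05 RPKM and at 1.60 and 6.33 RPKM. EGR1 was near its NC level in both lines, with differences of 0.31 and 0.03. MXD1, which opposes MYC on MAX, went from 7.48 to 46.3 RPKM in HCT116 and from 10.8 to 82.6 RPKM in HT29. MYC stood at 167 and 286 RPKM and at 202 and 232 RPKM.

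In the list of plasminogen activation and the TGF-beta response 4 of 15 tested members were past the rule higher (26.7%) and 0 lower, with medians of 0.57 and 1.93 (1.51 with the length trend removed). PLAU, the urokinase that activates plasminogen, went from 447 to 999 RPKM in HCT116 and from 342 to 726 RPKM in HT29. Its limma adjusted p was 0.19, and 0.040 with the length trend removed. THBS1, which releases TGF-beta from its latent form, went from 82.1 to 259 RPKM and from 50.6 to 253 RPKM. TGFB2, a ligand of the pathway, went from 2.16 to 10.3 RPKM and from 5.22 to 36.4 RPKM.

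Genes of the basement membrane were past the rule in number. Of 24 collagens and laminins 6 were higher (25.0%) and 1, COL6A3, lower, with medians of 0.24 and 0.90 (0.15 in HT29 with the length trend removed). These mRNAs are long, with a median of 5731 bases, at the end where HT29 NC read low. LAMA3 and LAMB3 encode laminin chains that anchor epithelia. LAMA3 went from 139 to 427 RPKM in HCT116 and from 92.3 to 794 RPKM in HT29, and LAMB3 from 339 to 1581 and from 389 to 1002 RPKM. COL4A1 and COL4A2, the main chains of collagen IV, were low: COL4A1 stood at 0.186 and 9.05 RPKM in HCT116 and at 2.56 and 15.2 RPKM in HT29. COL4A5 was at 433 and 980 RPKM and at 97.5 and 591 RPKM (adjusted p = 0.045 with the length trend removed). Integrins had 2 of 14 past the rule higher, ITGB8, at 14.8 and 37.5 RPKM and at 15.7 and 98.1 RPKM, and ITGB6, at 0 and 1.73 RPKM in HCT116 and at 25.5 and 172 RPKM in HT29. The HCT116 siRNA value of ITGB6 is 1.00% of the HT29 one, within the range of the HT29 genes described next for SCEL.

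Keratinocyte and cornified envelope genes had 6 of 27 tested members past the rule higher (22.2%) and 0 lower. SCEL (sciellin), a precursor of that envelope, went from 154 to 3501 RPKM in HT29. Over both lines its limma adjusted p was 0.066, and 0.020 with the length trend removed. Its HCT116 values were 0 and 10.8 RPKM, and the second is 0.31% of the HT29 level. In the same HCT116 library 29 genes of HT29 were read at a median of 0.49% of their HT29 level (0% to 4.21%). These genes were picked as high in every HT29 library and very low in HCT116 NC. Their median of 0% under NC therefore follows from that choice and is no contrast. The HCT116 value of SCEL lies within their range, and its source was not tested. KRT80, a keratin of differentiating epithelia, went from 25.8 to 81.4 RPKM in HCT116 and from 45.7 to 405 RPKM in HT29. FLG, KLK5, KRT5 and CDSN, genes of cornified skin, were past the rule at low levels, all under 15 RPKM in the 4 libraries.

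Gut genes split. In the list of enterocyte and goblet cell genes 2 of 20 tested members were past the rule higher (MGAM and CEACAM5) and 2 lower (MUC13 and FABP1). MGAM, the brush border enzyme that digests starch, had the largest difference shared by both lines among genes with a mean of 10 RPKM or more: it was listed at 0 in HCT116 NC and 0.0933 RPKM in HT29 NC, and at 32.4 and 41.3 RPKM under RPL17 siRNA (difference 5.17, SE 0.41; limma adjusted p = 0.066, and 0.036 with the length trend removed). Its HCT116 level was near that of HT29. MUC13, a membrane mucin, went from 9.05 to 0.390 RPKM and from 106 to 44.3 RPKM. KRT20, of mature colon epithelium, went from 9.28 to 2.32 RPKM in HCT116 and from 403 to 1252 RPKM in HT29, and MUC2, the goblet cell mucin, from 1.45 to 1.28 RPKM and from 5.09 to 57.8 RPKM.

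ID genes, which block basic helix-loop-helix factors and are targets of BMP signals, were lower in both lines. ID1 went from 160 to 64.3 RPKM in HCT116 and from 397 to 122 RPKM in HT29, and ID2 from 506 to 245 and from 894 to 334 RPKM, the 2 of 14 tested members of their list past the rule. ID3 was lower by less in HCT116, at 133 and 92.9 RPKM, and at 378 and 148 RPKM in HT29. Over the whole list the medians were -0.079 and 0.056, with 4 members lower and 5 higher in both lines. In the Wnt list the 1 of 15 past the rule was CCND1, cyclin D1. It went from 1087 to 2610 RPKM in HCT116 and from 365 to 1953 RPKM in HT29. The difference was 1.84 (SE 0.30; limma adjusted p = 0.19), and 1.66 (SE 0.20; adjusted p = 0.043) with the length trend removed. AXIN2, the feedback gene most tied to Wnt signals, stood at 59.7 and 48.5 RPKM and at 64.0 and 121 RPKM.

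In the EGFR family 0 of 13 were past the rule, and the receptor itself had opposite differences, at 298 and 146 RPKM in HCT116 and at 22.5 and 224 RPKM in HT29. HT29 NC was the lowest of the 4 libraries. In the cholesterol list 2 of 24 were past the rule, both lower, among them EBP, an isomerase of sterol synthesis, which went from 351 to 169 and from 490.2 to 208 RPKM. Of 29 hypoxia and glycolysis genes and 35 respiratory chain subunits 0 were past it, and the respiratory chain median of -0.04 in HCT116 and -1.02 in HT29 (-0.42 with the length trend removed) was that of mRNAs with a median length of 1153 bases. In the BCL2 and caspase list 2 of 26 were past the rule higher, among them PMAIP1. None of 15 claudins and tight junction proteins was. Of 10 tested replication-dependent histone genes 3 were past the rule higher (H2AC6, H2BC5 and H3C6, listed under older symbols), each under 15 RPKM in all 4 libraries.

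Genes outside these lists completed the extremes. On the higher side MSH4, a meiotic recombination protein, went from 7.196 to 42.3 RPKM in HCT116 and from 3.97 to 37.0 RPKM in HT29. Its limma adjusted p was 0.15, and 0.040 with the length trend removed. IL31RA, a cytokine receptor, went from 6.76 to 37.1 RPKM and from a listed 0 to 10.7 RPKM, and GPR158 from 2.63 to 16.1 and from 0.645 to 26.1 RPKM. FMN1, a formin of cell junctions, and C1orf116 had differences of 2.90 and 2.07 in HCT116 and of 2.36 and 2.90 in HT29. The HT29 value of FMN1 was 1.11 with the length trend removed.

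On the lower side DHRS2, a mitochondrial reductase, went from 180.1 to 36.2 RPKM in HCT116 and from 139 to 30.5 RPKM in HT29. VWA5A went from 72.1 to 16.2 RPKM and from 78.5 to 16.98 RPKM, and TSPAN7, a tetraspanin, from 21.3 to 2.34 and from 23.5 to 3.10 RPKM. JDP2, an AP-1 repressor, went from 38.5 to 8.34 RPKM and from 41.9 to 7.04 RPKM. The remaining genes of that side were low in both NC libraries, at 13.97 to 65.6 RPKM: CCDC153, LRRC75A (listed as FAM211A), SDHAF4 (listed as C6orf57), TNNC1, TLL2 and DMC1.

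RPL17 siRNA was then set against the RPL9 and RPL27 siRNA libraries of the same lines, which leaves out both NC libraries and with them the length trend of HT29 NC. This asks which genes set RPL17 siRNA apart from siRNAs against other large subunit proteins. In the fit of the 6 RPL siRNA libraries (2 residual degrees of freedom) limma called 19 genes higher (0.133%) and 40 lower (0.281%), 2555 had an unadjusted p under 0.05, and 55 of the 59 lay on the same side of both other siRNAs in both lines. Of the 59, 4 were also past the size rule against NC, RPL17 and its read-through gene among them. Over all tested genes 1.85% were past that rule higher and 1.63% lower, so this small count is not read further. These calls depend on the fit: with the NC libraries included (all 8 libraries) none of the 59 was called, each at an adjusted p of 1, and 511 genes had an unadjusted p under 0.05. In limma 0 genes were also called without a filter on low values (2579 unadjusted), with no variance trend (2094), without the cell line as a block (902) or on leaving out either RPL17 siRNA library (1218 and 1654). RPL17 was lower by -1.66 (SE 0.063; adjusted p = 0.0012), and RPL9 was called higher because the RPL9 siRNA libraries are part of the comparator.

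C2, a serine protease of the complement pathway, had the lowest value. It stood at 2.48 RPKM under RPL17 siRNA against 32.1 (RPL9) and 17.6 RPKM (RPL27) in HCT116, and at 1.30 against 28.9 and 12.4 RPKM in HT29. It fell by 2.98 on the log2 scale (SE 0.25; adjusted p = 0.032), and NC stood between, at 16.7 and 4.99 RPKM. AATF, a nucleolar factor that restrains apoptosis and acts in small subunit maturation, stood at 636 against 1306 and 1299 RPKM in HCT116 and at 593 against 1343 and 1313 RPKM in HT29. It fell by 1.10 on the log2 scale (SE 0.063; adjusted p = 0.010), to 48.8% and 44.6% of the mean of the other two siRNAs.

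AGPAT4, an acyltransferase of phospholipid synthesis, stood at 56.9 against 299.8 and 146 RPKM in HCT116, and at 40.7 against 203 and 63.4 RPKM in HT29 (difference -1.66; adjusted p = 0.042). SEC14L2, a lipid transfer protein, stood at 182 against 269 and 458 RPKM and at 163 against 322 and 505 RPKM (difference -1.12; adjusted p = 0.040). The NC levels of HCT116 and HT29 were 55.5 and 54.1 RPKM for AGPAT4 and 245 and 163 RPKM for SEC14L2, so neither was past the size rule against NC. EGFR and the ribosomal protein gene RPL32 were among the 40 as well, RPL32 being chosen for mention after seeing its values.

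CCND1 was higher than under either other siRNA and also past the size rule against NC: it stood at 2610 against 1659 and 1586 RPKM in HCT116 and at 1953 against 1063 and 1077 RPKM in HT29. It rose by 0.78 (SE 0.065; adjusted p = 0.032). MT1E, a metallothionein, stood at 1386 against 798 and 774 RPKM and at 1272 against 620.4 and 699 RPKM, and rose by 0.88 (SE 0.076; adjusted p = 0.032). ABCC4, a pump of organic anions, UBE2D3, a ubiquitin-conjugating enzyme, and NEDD8, a ubiquitin-like protein, were called with differences of 0.70, 0.67 and 0.74. NEDD8 stood at 1715 RPKM in HCT116 against 1416 under RPL9 and 646 under RPL27 siRNA, so its value rests mainly on RPL27 siRNA, and it shares reads with the read-through gene NEDD8-MDP1. BIRC3 was short of the threshold (difference 1.05, SE 0.15; adjusted p = 0.060), at 250.5 against 223 and 57.5 RPKM in HCT116 and at 231 against 282 and 49.0 RPKM in HT29.

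**Figure D5:**
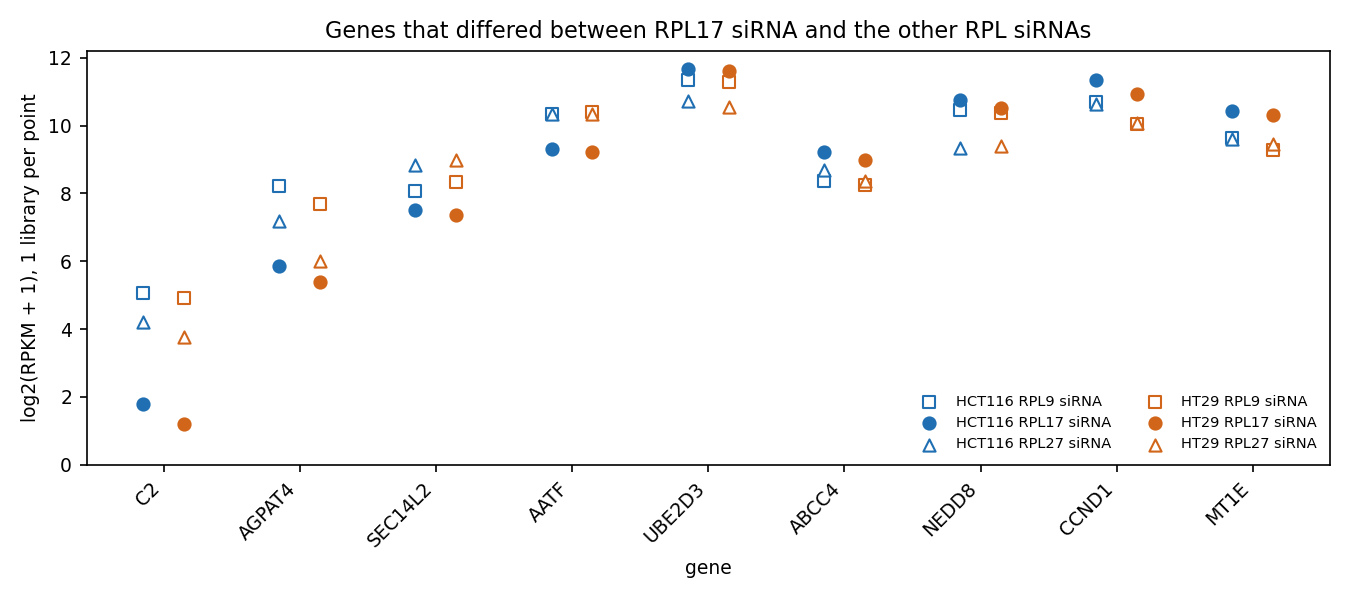
Levels as log2(RPKM + 1) (vertical axis) of 9 genes called between RPL17 siRNA (filled circles) and the mean of RPL9 (squares) and RPL27 siRNA (triangles), 1 library per point, HCT116 in blue and HT29 in orange. The filled circles lie below both open symbols for C2, AGPAT4, SEC14L2 and AATF and above both for UBE2D3, ABCC4, NEDD8, CCND1 and MT1E, in both lines.

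None of the 59 was one of the p53 targets or genes of amino acid synthesis, transport, tRNA charging or stress response, and a missed threshold does not show that the siRNAs acted alike. The medians of these lists against the other RPL siRNAs were -0.08, 0.13 and 0.06 for p53 targets of arrest, death and repair, and -0.04 for amino acid synthesis. CDKN1A stood at 958 RPKM against 1195 and 1133 in HCT116 and at 761 against 834 and 864 in HT29 (difference -0.22, SE 0.068; adjusted p = 0.19). ASNS stood at 1031 against 917 and 1115 and at 662 against 756 and 781 RPKM (difference -0.09, SE 0.089; adjusted p = 0.64). CPA4, called higher against NC, lay between the other siRNAs, at 1828 against 2944 and 913 RPKM and at 1218 against 2270 and 617 RPKM (adjusted p = 0.49).

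Cell cycle genes lay on 1 side. All 36 G2/M genes and 36 of 38 replication genes stood above the mean of RPL9 and RPL27 siRNA, where 52.8% of all genes did, with medians of 0.43 and 0.38, and 1 of them, BUB1B of the spindle checkpoint, was called. BUB1B, named after its value was seen, stood at 1142 RPKM under RPL17 siRNA against 827 and 726 RPKM in HCT116 and at 1045 against 745 and 717 RPKM in HT29. CDK1 was at 709.5 RPKM in the RPL17 siRNA library of HCT116, with a difference from NC of -0.57 there, against -1.03 under RPL9 and -1.29 under RPL27 siRNA. The 3 comparisons with NC share their NC libraries, so the values are given side by side and not tested against each other. For PLK1 they were -0.55, -1.10 and -1.33 in HCT116 and -0.77, -1.02 and -1.17 in HT29.

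The lines were checked against markers of epithelium and of other cell types. EPCAM stood at 2419 and 2352 RPKM in HCT116 and at 4431 and 3755 RPKM in HT29, and KRT8 at 9154 and 13978 RPKM and at 19524 and 23025 RPKM. Some other epithelial markers were low, at least in HCT116. CDX2, a transcription factor of the gut, stood at 10.5 and 11.8 RPKM in HCT116 and at 18.3 and 8.04 RPKM in HT29, and CEACAM5 at 0.930 and 2.95 RPKM and at 7.09 and 18.3 RPKM. VIL1 (villin) was near 0 in HCT116 (0.233 and 0 RPKM), with 358 and 463 RPKM in HT29. Summed over the list, epithelial markers came to 19746 and 31545 RPKM in HCT116 and 44716 and 49411 RPKM in HT29. Of 11 fibroblast, 12 leukocyte and 8 endothelial markers 5, 5 and 3 passed the filter on low values, and 1 of each was past the rule higher (ACTA2, ITGAM and KDR). Fibroblast markers summed to 416 and 443 RPKM in HCT116 and to 369 and 520 RPKM in HT29, most of it COL1A1 (374, 347, 335 and 437 RPKM). Leukocyte markers summed to 123 and 108 RPKM and to 1942 and 3075 RPKM, most of it LYZ in HT29 (1844 and 3001 RPKM), while PTPRC (CD45) was listed at 0 in both RPL17 siRNA libraries. Endothelial markers summed to 26.4 and 28.6 RPKM and to 45.7 and 137 RPKM, with PECAM1 under 0.4 RPKM in all 4. ACTA2 stood at 35.6 and 88.1 RPKM and at 31.5 and 76.4 RPKM, and its part in the other differences was not tested.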

How the data were processed

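RNA of 8 libraries (HCT116 and HT29 with NC, RPL9, RPL17 or RPL27 siRNA) was sequenced. Per the submitters' processing notes CASAVA 1.8.2, TopHat2 2.0.9 and the build hg19 were used. The deposited values are RPKM, per the file headers, 1 per gene symbol. The rule for assigning reads to genes was not stated in the labels. Levels of different genes, as in the marker sums, are therefore only roughly comparable. Depths are rough estimates from the value of 1 read, and no counts were recovered.

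Samples were grouped by title, and libraries of 1 line were paired by the cell line. log2(RPKM + 1) was fitted with limma 3.58.1 (trend; R 4.3.3; statmod 1.5.0 for robust variances) with line and siRNA as terms over all 8 libraries, and over the 6 RPL siRNA libraries for the second comparison. Genes needed a mean of 1 RPKM over the 4 libraries. Tests were two-sided, with p adjusted over all tested genes (Benjamini-Hochberg, threshold 0.05). They were also run on simulated data with independent normal noise. Those data held no length trend, so they do not show how the tests behave under that of HT29 NC. The size rule (1 on the log2 scale in both lines) is no test. The length trend was removed with a spline (5 degrees of freedom), with lengths matched for 18900 of 19124 genes. The corrected value of a single gene depends on the length assigned to it, and these lengths were not checked gene by gene.

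The comparison, the 42 gene lists (975 of 976 entries matched) and the tests were chosen with earlier results of these data known. Named genes were the targets, called genes, the 14 genes each way with the largest difference shared by both lines at a mean of 10 RPKM or more, key members and up to 4 members past the size rule per list, and the 6 highest and lowest called genes of the second comparison. Other members, such as ZMAT3, GPT2, YARS, DDIT4, COL4A5, ALDH18A1, ATF3, LYZ and BUB1B, were named after their values were seen, to complete a list's count or sum. Motifs were searched in RefSeq windows (GRCh38.p14). Alternatives were other pseudocounts, filters, scalings, variance settings, terms, libraries and size limits. Some genes that met the rule are not reported here.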

Additional observations from a re-analysis of the deposited data

Results flagged for a closer look

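Several gene lists had medians of opposite sign in the 2 lines, with 1 library per line and siRNA. The difference between lines was not tested for any of them. HT29 minus HCT116, the medians differed by -1.22 for large subunit ribosomal proteins (0.20 in HCT116 and -1.02 in HT29), by -1.27 for small subunit ribosomal proteins, by -0.77 for ribosomal protein paralogs, by -0.80 for mitochondrial ribosomal proteins and by -0.47 for translation factors. With the length trend removed the HT29 medians of these 5 lists were -0.29, -0.32, -0.18, -0.03 and -0.03. The other way, the medians differed by 1.02 for the EGFR family, 0.70 for Wnt genes, 0.69 for amino acid transporters, 0.52 for claudins and tight junction proteins, 0.50 for enterocyte and goblet cell genes and 0.14 for ID genes and BMP signalling. Of these 6, the lists of transporters (-0.58 in HCT116 and -0.16 in HT29), ID genes (-0.09 and -0.03) and Wnt genes (0.0088 and 0.55) had the same sign in both lines with the length trend removed. Chemokines and cytokines differed by -0.012, with both medians near 0, and with the length trend removed the medians were -0.04 in HCT116 and 0.61 in HT29.

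Among named genes SLC7A11, EGFR and KRT20 were at least 1 lower in HCT116 and at least 1 higher in HT29. HT29 minus HCT116, the difference was 4.57 for SLC7A11, 4.28 for EGFR and 3.26 for KRT20. With the length trend removed the HT29 difference from NC was 0.92, 2.12 and 2.08. These 3 differences between lines were not tested either.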

How the results depend on the processing

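The genes called for RPL17 siRNA against NC (2) numbered 0 without a filter, 10 under quantile normalization, 0 under median-centring, 50 with the length trend removed, 0 with no trend, 0 with no replicate block (no cell line term), 15 in the 4 libraries alone and 0 to 6328 on leaving out 1 library. In the limma fits with 0 calls, 2397, 2277, 2093 and 1499 genes had an unadjusted p under 0.05. Leaving out HCT116 NC gave 6328 and leaving out HT29 NC 976, the lone NC library being assumed to vary like the others. Leaving out any RPL siRNA library gave 0 (676 to 1559 unadjusted). The genes past the size rule in both lines (495) numbered 233 with a pseudocount of 5, 1483 at a difference of 0.6, 52 at 2, 1649 in HCT116 alone and 4696 in HT29 alone. The genes called for RPL17 siRNA against RPL9 and RPL27 siRNA (59) numbered 14 with a pseudocount of 0.1, 0 without a filter, 319 at a mean of 5 RPKM, 171 under quantile normalization, and 0 with no trend, with no replicate block and in all 8 libraries (2579, 2094, 902 and 511 unadjusted for the fits with 0). On leaving out 1 library they ran from 0 (either RPL17 siRNA library) to 39, with 3 without either RPL27 siRNA library. The RPL17 level (-1.90) passed at -1.62 under quantile normalization (adjusted p = 0.028) and -1.51 with the length trend removed (0.0078), and ran from -2.34 to -1.45 on leaving out 1 library.

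The sign turned for KRT20 (-0.16 with a pseudocount of 0.1, -0.055 under quantile normalization, -0.20 under median-centring) and RPL9 (0.014 under quantile normalization), and the difference of EEF1A1 went to 0 under quantile normalization. On leaving out 1 library the range was -1.14 to 1.14 for KRT20, -2.40 to 1.93 for SLC7A11, -0.97 to 3.22 for EGFR, -1.67 to 0.037 for CA9 and -1.02 to 0.099 for RPL9. The cause was not tested. Depth is known only as an estimate, so no counting error is given.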

Other observations

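With the length trend removed limma called further genes outside the naming rule, picked after their values were seen. SQSTM1 (p62), the receptor of selective autophagy, was higher by 1.13 in HCT116 and 1.16 in HT29 (adjusted p = 0.040), and NOLC1, a nucleolar chaperone of small nucleolar particles, by 0.95 and 1.35 (adjusted p = 0.043). FHL2 (2.23 and 1.85; adjusted p = 0.033), SEMA7A (1.73 and 2.23; 0.036) and the heparan sulfate proteoglycan SDC4 (1.45 and 1.34; 0.040) were higher as well. The keratin pair of simple epithelia was called together, KRT8 at 0.60 and 0.71 (adjusted p = 0.040) and KRT18 at 0.68 and 0.72 (0.043). On the lower side stood OAZ1, the antizyme that limits polyamine synthesis, at -1.01 and -1.58 (adjusted p = 0.049), and NCAPD2, of condensin, at -0.90 and -0.96 (0.040). OAZ1 was also lower than under RPL9 and RPL27 siRNA, by -0.78 (SE 0.067; adjusted p = 0.032), at 1067 against 1853 and 1595 RPKM in HCT116 and at 870 against 1671 and 1530 RPKM in HT29. C10orf55 was called higher beside PLAU, whose locus it overlaps, so their reads may be shared.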
